A study of Mus musculus with 6 samples.

Results

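The genes of fibroblast growth factor (FGF) signalling and its feedback were followed in oligodendrocyte precursor cells (OPCs) of mouse forebrain with and without deletion of Ep400, which encodes a chromatin remodeler. Members were all genes named as an FGF, an FGF receptor, a Klotho co-receptor, FGF-binding protein 1 or 3, an FLRT protein, a Sprouty or Spred protein, Dusp6, Il17rd, Etv1, Etv4 or Etv5. The name rule found 46 genes of the 48526 in the comparison, and all 46 were listed by their role in the pathway. Each gene was thus taken by its name, though the members and the lists used below were chosen with earlier results of these data known.

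Both groups were mice at postnatal day 6 on a mixed 129SvJ/C57Bl/6J background that carried CNP1::Cre and the conditional Rosa26stopflox-YFP reporter. The 3 mice or pools labelled ctrl carried nothing further by their labels, and the 3 labelled Ep400 cko also carried conditional Ep400. The Cnp promoter drives Cre in the oligodendroglial lineage, so the sorted YFP-positive cells are those in which Cre has been active and are not selected for an OPC surface protein. Cells came from forebrain freed of meninges. The labels call the samples biological replicates without saying whether animals were pooled. The p-values below take these samples as the units, and the authors' test also borrows its spread from genes of like level. RNA was sequenced in bulk, so fewer cells of a type and less RNA per cell cannot be told apart.

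FGFs that are secreted bind FGF receptors together with heparan sulfate and start signalling through adaptors, RAS and the ERK kinases. ERK activity in turn raises ETS factors of the Etv family and a set of inhibitors, the Sprouty, Spred, Dusp6 and Il17rd (Sef) proteins, which hold the pathway back. In the oligodendroglial lineage FGF signalling is known for its effects on precursor proliferation, on the timing of differentiation and on myelin thickness, and Fgfr3 is also strongly expressed by astrocytes and radial glia.

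The deposited file was a comparison over genes, without values for single samples. Mean levels are normalised reads, that is, read counts divided by the scale factor of each library and averaged over the 6 libraries. Summed over genes they came to 80407433 reads per library, so counting error is small for an abundant member. Fold changes are log2 values of Ep400 cko over ctrl, given with their standard error (SE) as the authors' deposited table lists them, and moderated towards 0. An adjusted p under 0.05 (Benjamini-Hochberg over 20101 tested genes, DESeq2) is called higher or lower. The ctrl and cko group means given beside them are not in the table: they were worked out from its mean, fold change and SE together and are not moderated. For genes with a mean up to 80 and 5 members above it, whole reads in each of the 6 libraries were worked out too, and within each group the letters a, b and c go by the size of the scale factor, from high to low, which ties no library to a numbered replicate.

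In reads the libraries were not alike. Library c of ctrl was the highest of 6 in 25.7% of the 5203 genes with a mean of 6.1 to 80, and in 139 of them it lay at least 3 times above the next library, against 3 to 46 such genes in each of the other 5. Library b of ctrl, the one with 46, was the lowest of 6 in 33.0% of the genes. Where reads per library were worked out and library c moves a value strongly, it is given with and without that library, which was not possible for the abundant members. Ep400 itself had a log2 fold change of 0.01 ± 0.17 (SE; adjusted p = 0.97) in the authors' deposited table. That value counts reads over the whole gene, and the labels do not say which part was deleted, so it does not check the labels.

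Of the 46 members, 38 were tested. By the authors' deposited table, 11 of them were higher in Ep400 cko, 0 were lower and 27 did not pass, with DESeq2's adjusted p. That is 28.9% of the tested members called, all of them higher, against 12.2% of all tested genes called, 7.64% higher and 4.61% lower. Of the 38 tested members 29 had a positive and 9 a negative fold change, and of the negative ones only Dusp6 had a mean of at least 1000 normalised reads. At an unadjusted p under 0.05, 12 members were higher, Spred1 being the one added, and still 0 were lower, where 14.2% of all tested genes were higher and 11.4% were lower. The median of the tested members was 0.32 on the log2 scale, and that of all tested genes was -0.0025. Among members with a mean of at least 1000 normalised reads, 10 of 23 were higher and 22 of 23 were positive, where 13.4% of the 10482 genes at that level were called, 8.68% higher and 4.76% lower. The 11 called members lie on 7 chromosomes. Of the 8 members without an adjusted p, 5 had a mean under 6.1, Fgf7 had no p-value, and Fgf4 and Fgf6 had a mean of 0.

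**Figure D1:**
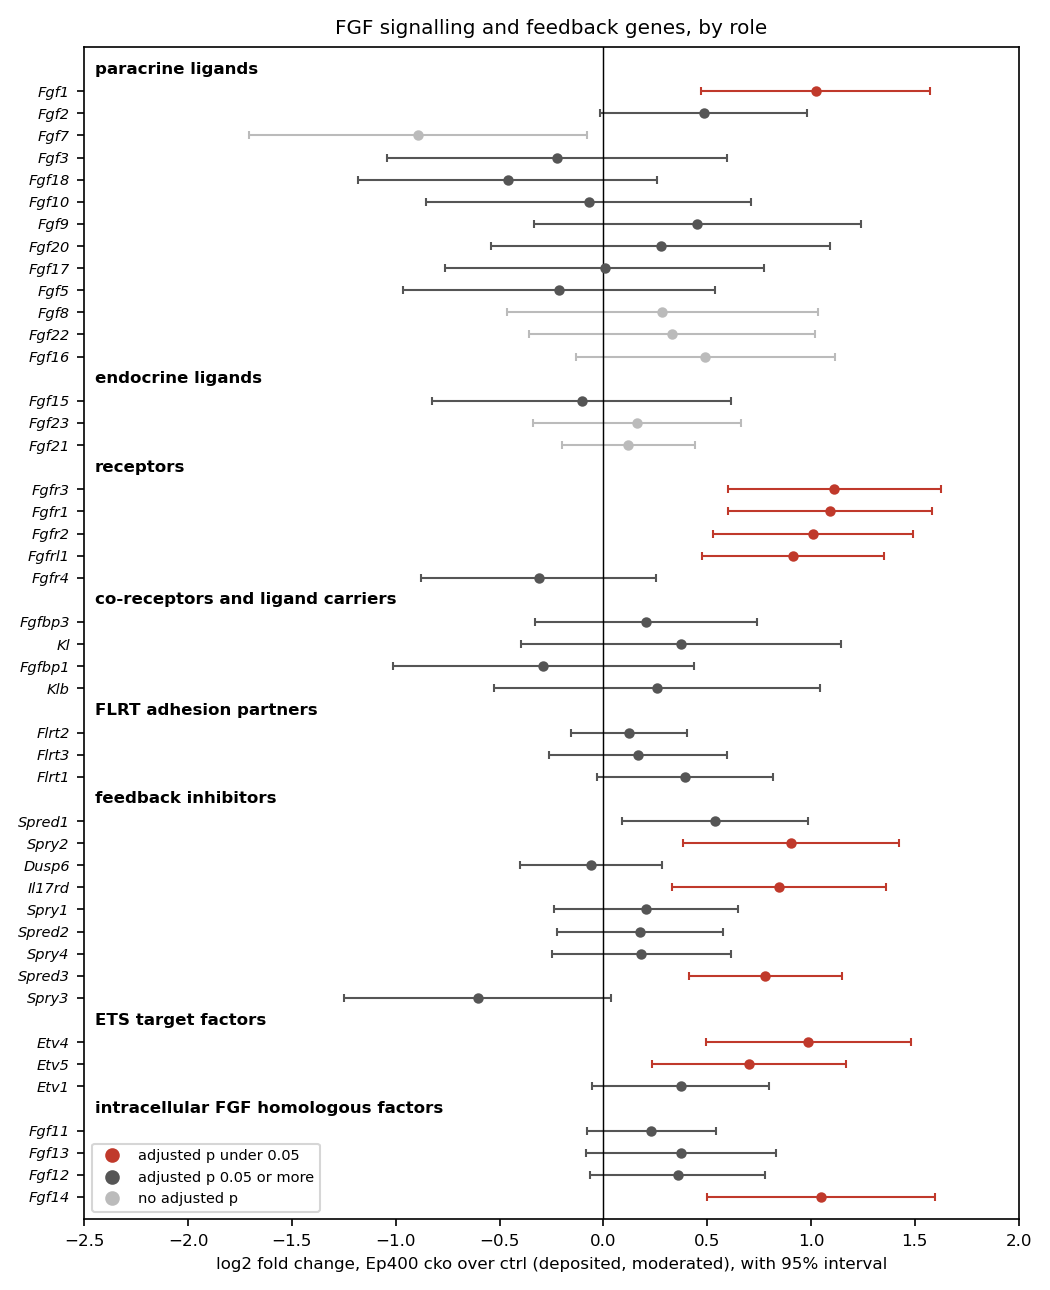
Log2 fold change of Ep400 cko over ctrl (x axis, the authors' deposited moderated values) for each member with one, by role, with bars for the 95% interval of 1.96 SE either way. The 11 red points, with an adjusted p under 0.05, all lie to the right of 0, between 0.70 and 1.11, and include 4 of the 5 receptors.

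Before the values by role, the promoters of 3 members are shown, since members that moved together can be compared in the sequence before their start. They are Fgfrl1, a called receptor gene and the only member with the searched motif, and a pair of feedback genes that differ in their fold change, Spry2, which was called, and Dusp6, which was not. Sequences are the 250 bases before a RefSeq start in the GRCm38.p6 build, on the strand of the gene, and capitals mark the letters CCGGAAG, a core motif of ETS factors.
Fgfrl1 (chr5:108693979-108694228, + strand): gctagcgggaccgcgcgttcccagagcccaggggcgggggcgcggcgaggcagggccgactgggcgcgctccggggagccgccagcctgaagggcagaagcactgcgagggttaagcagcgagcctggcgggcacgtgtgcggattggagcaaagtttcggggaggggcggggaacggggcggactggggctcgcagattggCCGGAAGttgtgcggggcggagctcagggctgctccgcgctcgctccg
Spry2 (chr14:105896820-105897069, - strand): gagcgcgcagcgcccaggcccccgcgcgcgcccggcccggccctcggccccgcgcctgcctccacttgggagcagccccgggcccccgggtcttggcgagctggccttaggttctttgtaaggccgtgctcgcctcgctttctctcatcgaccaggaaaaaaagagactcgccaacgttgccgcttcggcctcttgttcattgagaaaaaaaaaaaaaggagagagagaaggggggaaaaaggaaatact
Dusp6 (chr10:99262981-99263230, + strand): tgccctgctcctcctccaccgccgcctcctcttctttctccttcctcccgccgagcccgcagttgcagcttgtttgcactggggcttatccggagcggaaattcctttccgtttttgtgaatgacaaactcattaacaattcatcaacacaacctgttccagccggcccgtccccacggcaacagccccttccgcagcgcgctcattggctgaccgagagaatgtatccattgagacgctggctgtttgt
The motif was searched as CCGGAAG and its reverse complement CTTCCGG in windows of 250 bases before and 50 after each start. It was in 1 of 35 member genes with a window (2.86%), against 9.93% of 27025 genes, and the one match lay 48 bases before the Fgfrl1 start. Of the 11 called members, 8 had a window, and 7 of these 8 held no match. The absence of these letters from a window says nothing on the binding of any factor. CpG pairs in the 250 bases shown numbered 30 for Fgfrl1, 23 for Spry2 and 16 for Dusp6. None of the 3 stretches overlaps an exon annotated in GENCODE M21. The Fgfrl1 stretch does lie inside the gene as annotated there, which begins at 108692382. It is thus before the RefSeq start used here and not before the whole gene.

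The receptors were the role with the highest share of called members, 4 of 5, where 12.2% of all tested genes were called. Fgfr3, Fgfr1 and Fgfr2 encode receptor tyrosine kinases, and Fgfrl1 encodes a receptor that binds FGFs but lacks the kinase domain. Per kilobase of exon, Fgfr3 was the most abundant of all members at 7965 normalised reads, followed among the receptors by Fgfrl1 at 3413, Fgfr1 at 3312, Fgfr2 at 1371 and Fgfr4 at 43.9. The worked-out mean of Fgfr3 was 33736 normalised reads in ctrl and 80293 in Ep400 cko, a ratio of 2.38, and its log2 fold change in the authors' deposited table was 1.11 ± 0.26 (SE; adjusted p = 0.00091). For Fgfr1 the means were 19720 and 45688, a ratio of 2.32, and the authors' deposited table gives 1.09 ± 0.25 (adjusted p = 0.00064), the smallest adjusted p of any member. For Fgfr2 they were 8947 and 19376, a ratio of 2.17, with 1.01 ± 0.25 (adjusted p = 0.0013) in the authors' deposited table. Fgfrl1 had means of 6358 and 12634, a ratio of 1.99, and 0.91 ± 0.22 (adjusted p = 0.0014) in the authors' deposited table. These 4 fold changes lay within their SEs of each other, so no order among them can be read. In the same comparison 9 of 12 astrocyte markers were higher, with a median log2 fold change of 1.05, and their part in the values of the receptors was not tested.

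Fgfr4 encodes the fourth receptor kinase and was scarce. Its reads per library were 185, 117 and 235 in ctrl and 133, 144 and 122 in Ep400 cko. The groups overlapped, and the cko libraries lay inside the ctrl range. The authors' deposited table gives it -0.31 ± 0.29 (adjusted p = 0.54). The log2 ratio of its group means was -0.36 over all libraries and -0.05 without ctrl library c.

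Coordinates are those of GENCODE M21 on GRCm38, the mm10 assembly. Fgfr3 lies on chromosome 5 (33721674 to 33737068, plus strand), Fgfrl1 on chromosome 5 (108692382 to 108706924, plus strand), Fgfr1 on chromosome 8 (25513654 to 25575718, plus strand) and Fgfr2 on chromosome 7 (130162451 to 133123350, minus strand). Etv4 lies on chromosome 11 (101769742 to 101785371, minus strand), Etv5 on chromosome 16 (22381309 to 22439719, minus strand) and Spred3 on chromosome 7 (29158829 to 29170411, minus strand). Chromosome 14 holds Spry2 (105891947 to 105896819, minus strand), Il17rd (27038941 to 27107286, plus strand) and Fgf14 (123977907 to 124677127, minus strand). Exons of Fgfr3 share 998 bases with the opposite-strand gene G630022F23Rik, whose mean was 302 normalised reads, far under that of Fgfr3. Exons of Fgfr2 share 314 bases with Ctbp2 on the same strand (mean 7238, and in the authors' deposited table a log2 fold change of 0.34 ± 0.17 with an adjusted p of 0.17). The strand setting and the handling of shared bases in the counting are not given in the sources used here.

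**Figure D2:**
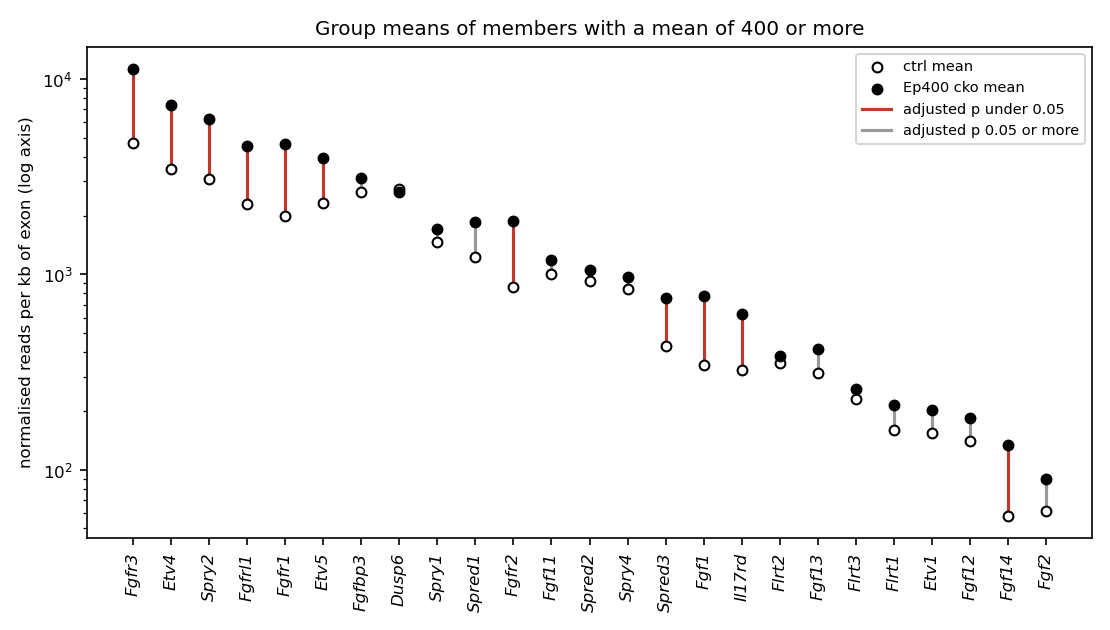
Worked-out group means of members with a mean of at least 400, in normalised reads per kilobase of exon (log axis), open for ctrl and filled for Ep400 cko, joined by a red line where the adjusted p was under 0.05 and a grey one otherwise. The means have no error bars because, at this level, reads per library were worked out for Fgf14 alone. The called members run from Fgfr3 to Fgf14, and for Dusp6 the 2 points nearly coincide.

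The ETS factors Etv1, Etv4 and Etv5 are transcription factors that FGF and ERK signalling is known to raise in many tissues. Etv4 and Etv5 were called higher and Etv1 was not. The mean of Etv4 was 10688 normalised reads in ctrl and 22876 in Ep400 cko, a ratio of 2.14, with 0.99 ± 0.25 (adjusted p = 0.0026) in the authors' deposited table. Etv5 had means of 9527 and 16258, a ratio of 1.71, and 0.70 ± 0.24 (adjusted p = 0.032) in the authors' deposited table, which does not pass a threshold of 0.01. Etv1 was much scarcer per kilobase of exon, 178 normalised reads against 5407 for Etv4 and 3142 for Etv5. Its fold change in the authors' deposited table was 0.37 ± 0.22 (adjusted p = 0.28).

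Of the 9 feedback inhibitors 3 were called higher and 6 did not pass, where 7.64% of all tested genes were higher. Spry2, a Sprouty protein that dampens receptor signalling to ERK, was the most abundant of them per kilobase of exon. Its means were 6432 normalised reads in ctrl and 13038 in Ep400 cko, a ratio of 2.03, and the authors' deposited table gives 0.90 ± 0.27 (adjusted p = 0.011). Il17rd, also called Sef, encodes a transmembrane antagonist of FGF signalling. It had means of 3553 and 6870, a ratio of 1.93, and 0.85 ± 0.26 (adjusted p = 0.017) in the authors' deposited table. Its call was lost, with an adjusted p of 0.10, when trends of the test statistic with transcript length and GC content were removed. Its longest transcript, 8280 bases, was the longest among the called members. Spred3, a Sprouty-related membrane protein, went from 2672 to 4730, a ratio of 1.77, with 0.78 ± 0.19 (adjusted p = 0.0012) in the authors' deposited table.

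Dusp6 encodes the ERK phosphatase that is widely used as a readout of FGF signalling. It was abundant, with means of 8612 normalised reads in ctrl and 8250 in Ep400 cko, and the authors' deposited table gives -0.06 ± 0.17 (adjusted p = 0.87). The 95% interval of that moderated value runs from -0.40 to 0.28 and does not reach the fold changes of the called members, 0.70 to 1.11. Those have intervals too. Spry2 has an interval of 0.38 to 1.42, and that of Etv5, 0.23 to 1.17, overlaps the interval of Dusp6. The difference between genes was not tested, since that needs values per sample.

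Spred1, which encodes an inhibitor of RAS activation, had means of 8343 and 12514 and 0.54 ± 0.23 (adjusted p = 0.11) in the authors' deposited table. Its interval, 0.09 to 0.99, leaves out 0 before adjustment. Spry1, Spry4 and Spred2 had values between 0.18 and 0.21 in the authors' deposited table, with SEs of 0.20 to 0.23 and adjusted p-values of 0.61 to 0.65. Spry3, which is on an unplaced scaffold in GENCODE M21, was scarce. Its reads were 273, 202 and 371 in ctrl and 86, 224 and 171 in Ep400 cko, with cko library b inside the ctrl range. The authors' deposited table lists Spry3 at -0.61 ± 0.33 (adjusted p = 0.23), and the log2 ratio of its group means moved from -0.75 to -0.44 without ctrl library c.

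Among the secreted ligands only Fgf1 and Fgf2 had means over 80 normalised reads. Fgf1 encodes acidic FGF, which binds all the receptor kinases, and its means were 1867 in ctrl and 4221 in Ep400 cko, a ratio of 2.26. The authors' deposited table gives it 1.02 ± 0.28 (adjusted p = 0.0061). Fgf2 encodes basic FGF, a mitogen of OPCs in culture, and had means of 418 and 607, with 0.48 ± 0.26 (adjusted p = 0.22) in the authors' deposited table. Exons of Fgf2 share 640 bases with the opposite-strand gene Nudt6 (mean 396, log2 fold change 0.08 ± 0.18 in the authors' deposited table). Per kilobase of exon Fgf1 stood at 557 and Fgf2 at 75.5 normalised reads, far under the 4 called receptors.

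The other secreted ligands were near the floor. Fgf18, a ligand of the FGF8 subfamily, had 38, 28 and 44 reads in ctrl and 25, 23 and 20 in Ep400 cko. Every cko library lay under every ctrl library, yet the authors' deposited table gives -0.46 ± 0.37 (adjusted p = 0.46), and an exact two-sided permutation test over 3 against 3 libraries cannot go below p = 0.1, which it reached. Fgf16 had 1, 0 and 0 reads in ctrl and 5, 4 and 3 in Ep400 cko, with no overlap. The ctrl reads are within the floor of 3 counts, so no fold is given.

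Fgf7, a ligand made by mesenchymal cells in other tissues, had no p-value in the authors' deposited table. It had 46, 39 and 250 reads in ctrl and 18, 42 and 46 in Ep400 cko. Only ctrl library c was high, and the other 5 libraries overlapped. The log2 ratio of the group means was -1.61 with library c and -0.14 without it.

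Fgf9, whose product is a known signal between neurons and glia, had 6, 0 and 22 reads in ctrl and 20, 20 and 26 in Ep400 cko, and the groups overlapped through ctrl library c alone. Its fold change in the authors' deposited table was 0.45 ± 0.40 (adjusted p = 0.52). The log2 ratio of its group means was 1.19 over all libraries, 2.68 without ctrl library c and 0.65 without ctrl library b. Fgf17 had 11, 0 and 20 reads against 9, 11 and 10. Its log2 ratio went from 0.01 to 0.93 without ctrl library c and to -0.53 without ctrl library b. Fgf3 had 78, 66 and 16 reads against 80, 10 and 20, a log2 ratio of -0.43 that was -0.84 without ctrl library c, -1.66 without cko library a and 0.01 without cko library b. For Fgf22, with 0 to 11 reads in any library, the log2 ratio was 1.20, 2.56 without ctrl library c and 0.75 without ctrl library b. Single libraries thus moved these ratios by as much as their size or more. Without ctrl library c the log2 ratio of Fgf8 went from 0.81 to 1.21, that of Fgf10 from -0.10 to 0.05, that of Fgf20 from 0.53 to 0.17 and that of Fgf5 from -0.64 to -0.53. Without ctrl library b, in the same order, the ratios were 0.33, -0.33, 1.05 and -0.26. Ctrl library b held 0 reads of Fgf9, Fgf17, Fgf22 and Fgf8. All of these ligands overlapped between the groups, with 0 to 80 reads in any library.

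Of the endocrine ligands, which act through the Klotho co-receptors, Fgf15 had 72, 34 and 40 reads in ctrl and 59, 36 and 29 in Ep400 cko. The groups overlapped, and the authors' deposited table gives Fgf15 -0.10 ± 0.37 (adjusted p = 0.89). Fgf23 had 4, 0 and 0 reads against 0, 2 and 9, and Fgf21 had 3 reads in a single cko library. For these a difference was not detectable at this depth.

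In all, 3 of the 20 members with reads per library did not overlap between the groups, Fgf14 and Fgf16 higher in cko and Fgf18 lower. Within means of 6.1 to 80 it was 1 of 10 members, beside 21.7% of the 5203 genes at that level (13.8% higher and 7.96% lower). That share is no higher than the background. Without ctrl library b it was 2 of the 10, beside 34.3% of the 5203 genes, and without ctrl library c it was 3 of the 10, beside 33.5%, shares that are not above the background either.

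**Figure D3:**
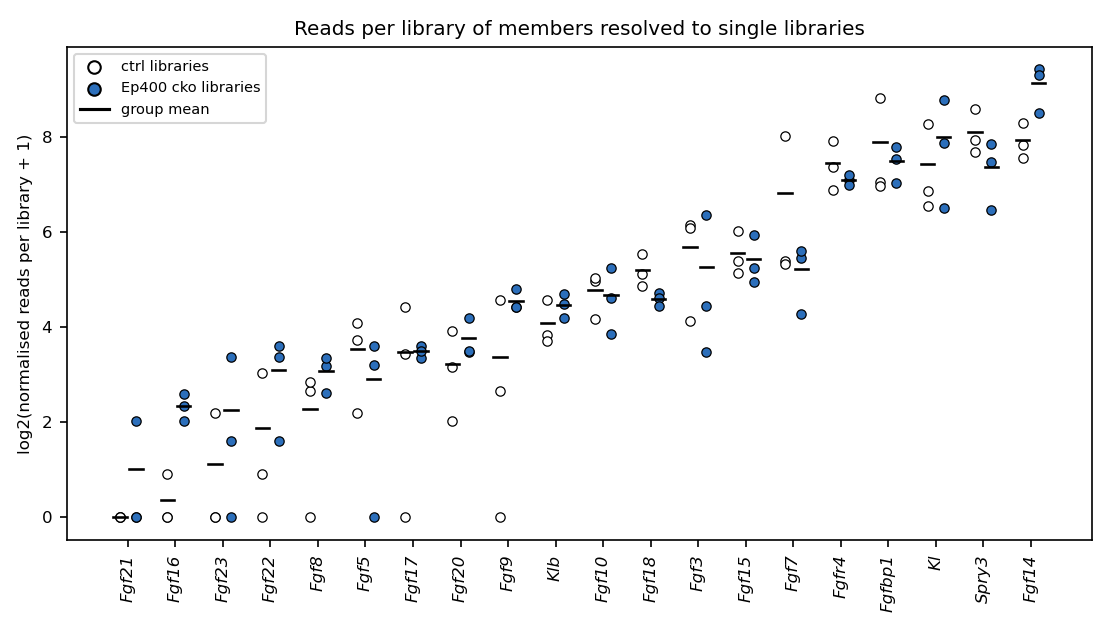
Normalised reads in each of the 6 libraries, as log2(value + 1), for the 20 members resolved to single libraries, ordered by mean, with open points for ctrl, filled points for Ep400 cko and a dash at each group mean. Fgf14, Fgf16 and Fgf18 are the 3 members whose groups do not overlap, and the single high ctrl point of Fgf7 is library c.

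The intracellular FGF homologous factors Fgf11 to Fgf14 are not secreted and are known as partners of voltage-gated sodium channels. Fgf14 was the only one called. Its reads per library were 353, 187 and 220 in ctrl and 358, 671 and 611 in Ep400 cko. After scaling, the ctrl libraries lay at 315, 188 and 227 and the cko libraries at 364, 684 and 632, so the groups did not overlap, with cko library a close above ctrl library a. The scaled means were 243 ± 64.8 (SD, n = 3) in ctrl and 560.1 ± 172 (SD, n = 3) in Ep400 cko, and the exact two-sided permutation test gave p = 0.1, the smallest it allows. The authors' deposited table gives 1.05 ± 0.28 (adjusted p = 0.0042). Leaving out each library in turn moved the log2 ratio of the Fgf14 group means between 1.03 and 1.43. Fgf14 was the scarcest called member, at 96.0 normalised reads per kilobase of exon. Fgf11, Fgf13 and Fgf12 were more abundant, and the authors' deposited table gives them 0.23 ± 0.16, 0.37 ± 0.23 and 0.36 ± 0.22 (adjusted p from 0.30 to 0.37).

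No co-receptor, carrier or FLRT gene passed, adjusted or unadjusted. Fgfbp3, whose product releases FGFs from matrix, was abundant, with means of 4679 and 5500 and 0.20 ± 0.27 (adjusted p = 0.69) in the authors' deposited table. Fgfbp1 had 149, 123 and 437 reads in ctrl and 128, 216 and 180 in Ep400 cko. Ctrl library c was again the high one, and the log2 ratio of the Fgfbp1 group means turned from -0.40 to 0.48 without it. In the authors' deposited table Fgfbp1 is at -0.29 ± 0.37 (adjusted p = 0.68). Kl, which encodes Klotho and is strongly expressed by choroid plexus, had 130, 92 and 298 reads against 89, 428 and 225. Those groups overlapped over most of their range. The log2 ratio of the Kl group means was 0.56 over all libraries, 1.27 without ctrl library c and -0.09 without cko library b, and Kl is at 0.37 ± 0.39 (adjusted p = 0.60) in the authors' deposited table. Klb had 12 to 24 reads in each library, and its log2 ratio went from 0.38 to 0.69 without ctrl library c. Flrt1, Flrt2 and Flrt3, adhesion proteins that bind FGF receptors, lay between 0.12 and 0.39 in the authors' deposited table, with SEs of 0.14 to 0.22 and adjusted p-values of 0.24 to 0.69.

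The called members were close to one another in variation. The coefficient of variation behind the authors' test, worked out from the deposited SE, ran from 16.8% for Spred3 to 27.5% for Fgf1, with a median of 23.8%. It is the dispersion of the fitted model, which borrows from genes of like level, and not the SD of the libraries. The SEs of the called members ran from 0.19 to 0.28 on the log2 scale, and those of the tested members not called from 0.14 to 0.42. Their levels differed too, with a median mean of 9735 normalised reads for called members and 512 for tested members not called.

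Other genes of the pathway were read as lists in the same comparison, in which 7.64% of all tested genes were higher and 4.61% were lower. Of 25 receptor adaptors and members of the RAS-ERK relay, 1 was higher and 1 was lower in the authors' deposited table, and the median log2 fold change was 0.01. The higher one was Frs2, the docking protein of FGF receptors, which the authors' deposited table puts at 0.53 ± 0.18 (adjusted p = 0.025). The lower one was Mapk3, which encodes ERK1, which the authors' deposited table puts at -0.60 ± 0.20 (adjusted p = 0.029).

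Of 18 tested ERK response and other ERK phosphatase genes, 0 were higher and 4 were lower by DESeq2's adjusted p (1 and 6 at an unadjusted p under 0.05), 16 of the 18 were negative, and the median was -0.24. The 3 with the smallest adjusted p in the authors' deposited table were Phlda1, a growth factor response gene, at -0.77 ± 0.21 (adjusted p = 0.0059), the phosphatase gene Dusp2 at -0.89 ± 0.25 (adjusted p = 0.0068) and the phosphatase gene Dusp9 at -1.27 ± 0.37 (adjusted p = 0.0087). The FGF members and these genes of the same pathway thus had medians of opposite sign, 0.32 and -0.24, in the same comparison.

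Of 22 heparan sulfate proteoglycans, their synthesis enzymes and sulfatases, 5 were higher and 0 were lower by DESeq2's adjusted p (8 and 1 at an unadjusted p under 0.05), with a median of 0.17. Hs6st3, a sulfotransferase of heparan sulfate, was at 1.83 ± 0.35 (adjusted p = 1.5e-05) in the authors' deposited table but scarce, with a mean of 141 normalised reads. The glypican genes Gpc5 and Gpc6 were at 1.44 ± 0.30 (adjusted p = 9.1e-05) and 0.96 ± 0.28 (adjusted p = 0.0094) in the authors' deposited table.

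Markers of other cell types moved in the same comparison. Of 12 astrocyte markers 9 were higher and 0 were lower by DESeq2's adjusted p (10 and 0 unadjusted), with a median log2 fold change of 1.05 and values from 0.24 to 2.03 in the authors' deposited table. Their summed worked-out level was 477649 normalised reads in ctrl and 1243610 in Ep400 cko, a ratio of 2.60, led by the glutamate transporter gene Slc1a3 at 1.22 ± 0.31 (adjusted p = 0.0024) in the authors' deposited table. Of the 9 markers of radial glia or neural stem cells, 3 were higher and 0 were lower (5 and 0 unadjusted), with a median of 0.63 and a summed ratio of 1.71, led by Fabp7 at 0.78 ± 0.28 (adjusted p = 0.048) as the authors' deposited table has it. The 4 called receptors, at 0.91 to 1.11, thus had fold changes close to the astrocyte median. The part of either marker list in the change of the FGF members was not tested.

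The labelled cells were checked with 12 OPC markers, and none of the markers of any list had a mean under 1. Of the OPC markers 2 were higher and 2 were lower (2 and 4 at an unadjusted p under 0.05), with a median of -0.37. In direction, 10 of the 12 were negative. The lower ones were C1ql1 at -1.03 ± 0.29 (adjusted p = 0.0077) and Matn4 at -1.01 ± 0.34 (adjusted p = 0.034) in the authors' deposited table. Pdgfra, the receptor gene that defines OPCs, had a mean of 19690 normalised reads and -0.03 ± 0.29 (adjusted p = 0.97) in the authors' deposited table. Ptprz1, the OPC marker with the most reads, which radial glia and astrocytes also express, was at 1.30 ± 0.31 (adjusted p = 0.0012) as the authors' deposited table has it.

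The 12 genes that mark mural cells (pericytes and smooth muscle) or fibroblasts held 0 that were higher and 9 that were lower (0 and 10 unadjusted), with a median of -0.96 and a summed ratio of 0.554. Microglia and macrophage markers had 3 of 10 lower (0 higher and 6 lower unadjusted), a median of -0.44 and a summed ratio of 0.737. Endothelial markers had 2 of 10 lower (1 and 2 unadjusted), a median of -0.33 and a summed ratio of 0.844. Oligodendrocyte markers had 1 of 9 lower (0 and 6 unadjusted) and a median of -0.85, and all 9 were negative. Ependymal and choroid plexus markers had 5 of 8 lower (1 and 6 unadjusted) and a median of -0.88. Neuron markers had 2 of 10 higher (2 and 0 unadjusted) and a median of 0.19. In the ependymal and choroid plexus list the 6 genes of ciliated cells were all negative, and the choroid plexus genes Ttr and Kcne2, with 0.92 ± 0.41 (adjusted p = 0.13) and 0.60 ± 0.38 (adjusted p = 0.33) by the authors' deposited table, were positive without passing. Summed levels of these last 3 lists and of the OPC list are not given, because some of their SEs exceed 0.35, the limit under which the worked-out means were checked. By mean normalised reads, not per kilobase of exon, the leading genes of these lists were Rgs5, Csf1r, Slc2a1, Mbp, Ttr and Map2. None passed, with adjusted p-values of 0.058 to 0.29 in the authors' deposited table. Slc2a1, at 0.42 ± 0.20 there, and Ttr were positive although the medians of their lists were negative.

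**Figure D4:**
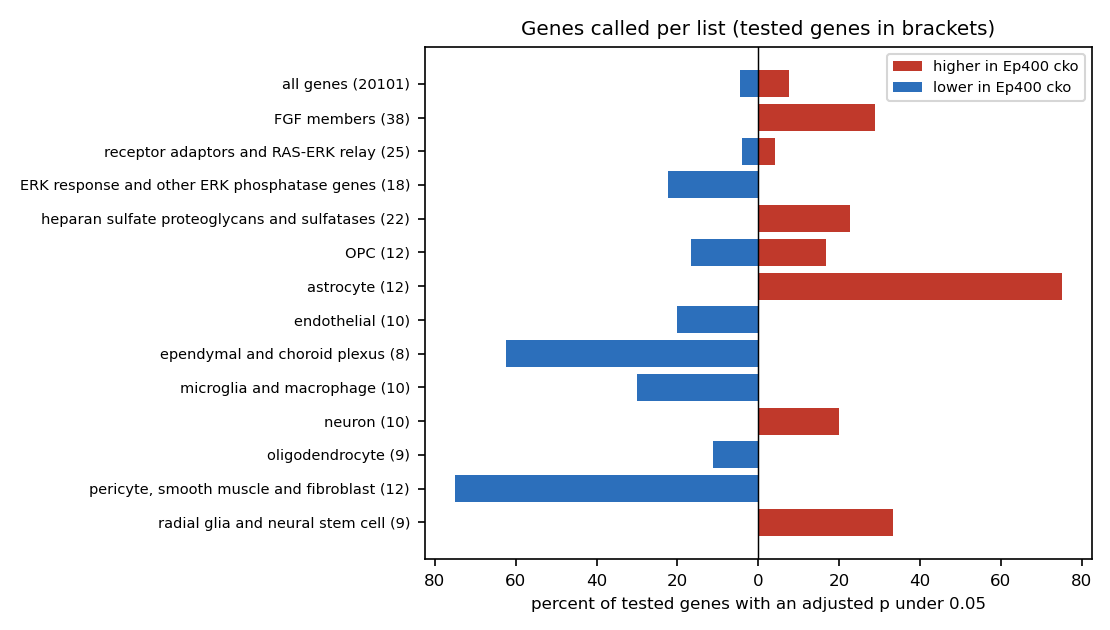
Percent of tested genes with an adjusted p under 0.05 in the authors' deposited table, to the right for higher and to the left for lower in Ep400 cko, for all genes, the FGF members and each list, with the number of tested genes in brackets. The FGF members (28.9%) and the astrocyte markers (75.0%) have calls to the right alone, and the ERK response genes have theirs to the left alone. Calls on a single side are common among the lists. The heparan sulfate, radial glia and neuron lists also have them to the right alone. The mural, ependymal, microglia, endothelial and oligodendrocyte lists have them to the left alone.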

How the data were processed

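RNA of 3 ctrl and 3 Ep400 cko samples was read from 1 deposited comparison, which has 0 columns per sample. The submitters' processing notes name STAR 2.5.1, HTSeq, DESeq2 and the mm10 build, in no stated order, as the authors' tools. Identifiers are of Ensembl release 85, per the file headers. The authors' deposited mean signal is a scaled read count, their log2 fold change and log2 SE are moderated (read from the values), their deposited score is the fold change over its SE, and their deposited p-value and Benjamini-Hochberg adjusted p-value follow from it. The direction, cko over ctrl, is stated only by the file's name. The planned count model needs values per sample, so the authors' comparison was used. Fold changes and p-values are the authors' and were not refitted.

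Reads per library were solved from the mean as a sum of whole reads times the worth of 1 read in each library, with 1 solution for 13797 of 13820 genes up to a mean of 80; of 300 means shifted off the true values, 6 also had a solution. A library was put in ctrl or cko by whether genes with reads in no other library have a negative or positive deposited fold change, and the scale factors were 0.967 to 1.12.

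After seeing the data, the estimate by which the authors' DESeq2 moderates a fold change was written as a formula (prior SD 0.59, fitted to recovered genes) and solved for the group means of the 29 members over a mean of 80 and of the genes in the marker lists, and for the reads of 5 of them, with a match threshold of 2e-06 on the fold change. Fgf2 had several matches and was left unresolved. On 300 recovered genes with means of 40 to 80 the log2 ratio was off by a median of 0.0017, by over 0.1 in 4 and by at most 0.33, and by under 0.02 in all 113 with an SE under 0.35. On 100 genes with means of 10 to 80 it failed in 10 and was off by over 0.1 in 22, and 16 of these had a library at 0, so it was not used there. Where 2 ratios fitted, that of lower dispersion was taken; each called member had 1.

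Identifiers were matched to GENCODE M21, 48144 of 48526, and promoters to RefSeq. The exact permutation test was two-sided, over libraries. The members and lists were chosen with earlier results of these data known. Full values go to called members, receptors and the 2 most abundant of each role per exon length, and up to 3 called genes of a pathway list. Values of further members, Pdgfra, C1ql1, Matn4, Cspg5, Kcne2, and genes sharing exons were chosen after they were seen. Alternatives were filters on low genes, recentring, length and GC trends, a threshold of 0.01, raw reads, pseudocounts of 0.5 and 2, and leaving out each library. Python 3.11.15, numpy 2.4.6, scipy 1.17.1, pandas 2.3.3, scikit-learn 1.9.0 and numba 0.67.0 were used, and the solvers were tested on simulated data.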

Additional observations from a re-analysis of the deposited data

How the results depend on the processing

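The members called numbered 11 as reported, 11 with no filter on low genes, 11 with a mean of at least 80, 11 after recentring, 10 with trends in length and GC content removed, where Il17rd lost its call, and 8 at an adjusted p under 0.01, where Etv5, Spry2 and Il17rd did. Over all genes the calls numbered 2462, between 2093 and 2459 under the first 4 kinds of alternative, and 1197 at 0.01. Of 180 alternatives for the adjusted p of single members, 176 stayed on the same side of the threshold, 4 became weaker and 0 reversed. All of them rework the same deposited statistics. For a member not called, the threshold of 0.01 could not give another outcome, so the 176 were in part fixed beforehand. Of the 20 members with reads per library, 3 did not overlap between groups, also in raw reads, and 4 to 6 did not when 1 library was left out, most without ctrl library b and without ctrl library c (6 each). Fewer libraries then need to be apart: of the 5203 genes with a mean of 6.1 to 80, 21.7% did not overlap over all libraries and 27.2% to 37.7% with 1 left out, and of the 10 members at that level 1, and 1 to 3. The log2 ratio of the group means kept its sign in 12 of 20 members whichever library was left out, and single libraries moved it far, from -2.01 to -0.14 for Fgf7 and from -0.70 to 0.48 for Fgfbp1. No paired analysis was possible because the comparison holds no values per sample and the libraries cannot be tied to replicate numbers; for the same reason leaving out a replicate, edgeR, DESeq2 and TMM were not run for the calls. Most ligands had few reads, and their libraries differed widely within a group.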
